A study of Mus musculus with 4 samples.

Results

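The genes described here are the proteins of the cytosolic ribosome together with the processed pseudogene Rps13-ps1. They were taken by name from the deposited gene table: symbols made of Rpl or Rps, a number and at most the endings a, x, l or l1, plus Rplp0, Rplp1, Rplp2, Rpsa and Rps13-ps1. This gave 85 genes of 46603, of which 33 belong to the 40S subunit, 51 to the 60S subunit and 1 is Rps13-ps1. The ribosome is built from a small (40S) and a large (60S) subunit, each a set of ribosomal RNAs coated by ribosomal proteins, and nearly every protein is needed in 1 copy per subunit. The mRNAs of these proteins typically start with a run of pyrimidines, the terminal oligopyrimidine (TOP) motif, through which growth signals acting on mTOR control their translation. In the heart, growth of cardiomyocytes goes with more protein synthesis, and striated muscle has a large-subunit protein of its own, Rpl3l, in place of Rpl3.

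Heart ventricles were taken from C57Bl6/J mice, 8 to 12 weeks of age. The 4 groups were P2Y6 KO mice given isoproterenol, P2Y6 KO mice given saline, wild-type (WT) mice given isoproterenol and WT mice given saline, with 1 library each. P2Y6 is a receptor for extracellular nucleotides, and the labels call the KO mice P2Y6-null without naming the allele. Isoproterenol stimulates beta-adrenergic receptors and is used to provoke cardiac hypertrophy, and it was injected intraperitoneally at 50 mg/kg/day for 7 days. Whether a library holds 1 heart or a pool is not stated, and a comparison of 2 libraries has neither replicates nor a p-value.

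Levels are in CPM (reads of the gene per 1000000 in the listed genes), and between genes in CPM per kilobase of mRNA. A ratio is the reads of one library over another after TMM scaling, with a 95% interval that covers counting error only and compares these libraries, not the conditions. A gene counts as beyond 1.5-fold when its whole interval lies there, and the 14301 genes averaging 10 reads or more per library were tested. The libraries held 18771198 reads (KO isoproterenol), 22965087 (KO saline), 20721472 (WT isoproterenol) and 25637369 (WT saline), and mitochondrially encoded genes took 22.5% to 28.9% of them. The targeted gene P2ry6 had 0.533 and 0.566 CPM in the KO isoproterenol and KO saline libraries, against 5.89 and 5.11 CPM in the WT isoproterenol and WT saline libraries. All 10 ventricular cardiomyocyte markers were measured, with a summed level of 66512 CPM (KO isoproterenol), 87681 (KO saline), 78882 (WT isoproterenol) and 88744 (WT saline).

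Rps13-ps1 is a processed pseudogene, an intronless copy of the mRNA of Rps13, a 40S protein. GENCODE M21 places it at chr8:87047689-87048226 on the plus strand of GRCm38, while Rps13 lies at chr7:116331505-116334195 on the minus strand. Over the coding sequence of Rps13, 456 bases with its stop codon, the pseudogene differs at 2 bases. Bases 301 to 456 are shown because they hold both differences, which are in capitals. In Rps13 they come from 3 exons within chr7:116331550-116332949 (minus strand), and in Rps13-ps1 from chr8:87048020-87048175 (plus strand).

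Rps13: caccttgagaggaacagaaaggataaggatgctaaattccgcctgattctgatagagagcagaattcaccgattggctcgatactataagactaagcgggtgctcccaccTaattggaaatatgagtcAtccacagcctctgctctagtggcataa

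Rps13-ps1: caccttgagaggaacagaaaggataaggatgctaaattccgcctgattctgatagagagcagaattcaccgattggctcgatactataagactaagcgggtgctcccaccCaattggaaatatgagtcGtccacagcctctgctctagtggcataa

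Counted from the A of the start codon, the differences of Rps13-ps1 from Rps13 are T411C and A429G, both at the third base of a codon (codons 137 and 143). The sequences are 99.6% identical, with 410 bases in a row without a difference. Over the annotated transcripts 522 bases align with 2 mismatches and no gap. A read that lies within this aligned stretch and covers neither position matches both loci equally, and how such reads were assigned is not given in the sources used here. From totals per gene, the locus that a read came from cannot be told apart.

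Rps13-ps1 separated the libraries by genotype. It had 355 reads (18.9 CPM) in the KO isoproterenol library and 220 reads (9.58 CPM) in the KO saline library, against 2 reads (0.0965 CPM) in the WT isoproterenol library and 5 reads (0.195 CPM) in the WT saline library. Both KO libraries were far above both WT libraries. The ratio of KO over WT was 135 (46.5 to 1402) in isoproterenol and 46.3 (21.5 to 158) in saline. Within KO, the isoproterenol library was 1.74-fold above the saline library (1.47 to 2.07), and the WT libraries had too few reads to order them. When genotype and treatment were fitted as additive terms to all 4 libraries (limma, log2(CPM + 1), Benjamini-Hochberg over 14301 genes), Rps13-ps1 was the 1 member of 81 tested with a genotype term past 0.05. Its term was 3.66 ± 0.28 (SE, adjusted p = 5.0e-07), KO being higher in both treatments, and 0.0979% of all genes tested had such a term. Rps13-ps1 passed the filter of a mean of 10 reads through its KO reads alone, so this term is a description of the same difference and no further support for it. With TMM-scaled CPM the lowest adjusted p of any member was 0.0675 for this term.

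Rps13 itself was lower in the KO libraries. It had 109 CPM in KO isoproterenol and 88.9 CPM in KO saline, against 115 CPM in WT isoproterenol and 109 CPM in WT saline. Against WT, the KO level was 1.22-fold lower with isoproterenol (1.15 to 1.29) and 1.18-fold lower with saline (1.12 to 1.25). With total-read scaling the isoproterenol interval held 1 and the saline one stayed below it. Summed over both loci the CPM were 128 and 98.5 in the KO isoproterenol and KO saline libraries, against 115 and 109 CPM in the WT isoproterenol and WT saline libraries. The KO over WT ratio of this sum was 0.964 (0.910 to 1.02) in isoproterenol and 0.934 (0.883 to 0.988) in saline. It lies above that of Rps13 alone by arithmetic, since nearly all reads of Rps13-ps1 were in the KO libraries. Rps13-ps1 took 14.7% (13.3 to 16.2) of the reads of both loci in KO isoproterenol and 9.73% (8.54 to 11.03) in KO saline, against 0.084% (0.0102 to 0.303) in WT isoproterenol and 0.179% (0.0581 to 0.417) in WT saline, with exact 95% binomial intervals.

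**Figure D1:**
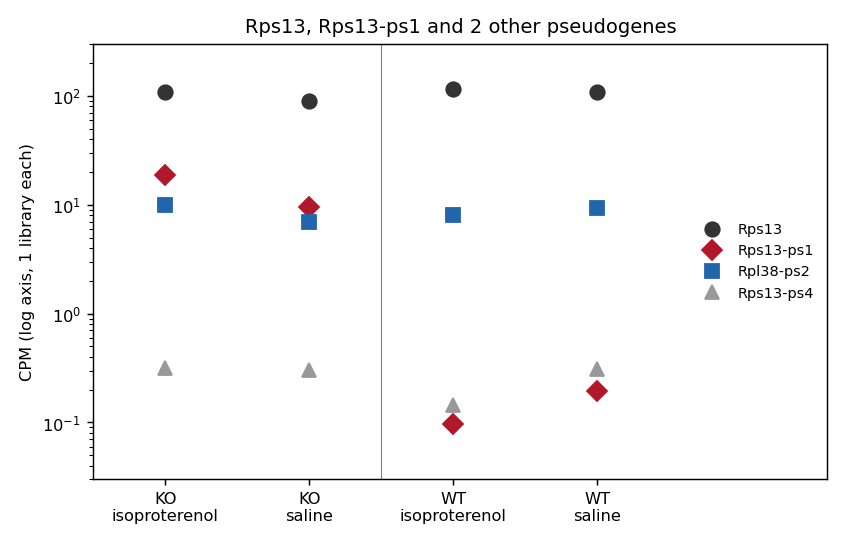
Levels of Rps13, Rps13-ps1, Rpl38-ps2 and Rps13-ps4 in each library, in CPM on a log axis, 1 point per library. Rps13-ps1 lies at 18.9 and 9.58 CPM in the KO isoproterenol and KO saline libraries, against 0.0965 and 0.195 CPM in the WT isoproterenol and WT saline libraries, while the other genes show no such gap between genotypes.

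Other ribosomal protein pseudogenes did not show this. The 6 other Rps13 pseudogenes in the table had 0 to 8 reads in any library. Of 260 other ribosomal protein pseudogenes found by name, 152 had reads, and 259 stayed under 2 CPM in every library. The exception, Rpl38-ps2, had 9.91 and 6.97 CPM in the KO isoproterenol and KO saline libraries, against 8.06 and 9.24 CPM in the WT isoproterenol and WT saline libraries, and these values overlap between genotypes. Of the 12 with enough reads for a ratio, 0 were higher beyond 1.5-fold in KO than in WT in either treatment. The shares of all genes were 4.2% in isoproterenol and 0.273% in saline, so 0 of 12 is near them. Lower beyond 1.5-fold in KO were 0 in isoproterenol and 1 in saline, beside 1.8% and 0.217% of all genes.

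Rps13 shares its chromosome with the targeted gene, P2ry6 (chr7:100937630-100974649), and lies 15.4 Mb from it. Of the 15 ribosomal protein genes on chromosome 7, 14 were tested, and 2, Rps13 and Rplp2, had intervals below 1 for KO over WT in both treatments, beside 3.61% of all genes. With total-read scaling Rpl3l alone among the members had an isoproterenol interval below 1, so neither gene kept this. Rps3, the nearest at 1.45 Mb, had KO over WT ratios of 1.02 in isoproterenol and 0.947 in saline. Rpl27a, at 8.54 Mb, had 1.12 in isoproterenol and 0.956 in saline. Whether the place of these genes bears on their values was not tested.

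The ribosomal protein mRNAs together made up about 1% of each library. Their summed level was 13166 CPM in KO isoproterenol (1.32% of reads) and 10577 CPM in KO saline (1.06%), against 10587 CPM in WT isoproterenol (1.06%) and 11299 CPM in WT saline (1.13%). The KO isoproterenol library stood above the other 3. After TMM scaling its sum was 1.10-fold that of KO saline (1.09 to 1.10) and 1.07-fold that of WT isoproterenol (1.07 to 1.08). The sum of WT isoproterenol was 0.990 times that of WT saline (0.985 to 0.996), and that of KO saline was 0.969 times that of WT saline (0.963 to 0.974). With total-read scaling the first 2 ratios were both 1.24, and the WT isoproterenol over WT saline ratio was 0.937.

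Among the 81 members tested, the mean level of the 4 libraries ranged from 13.4 to 461 CPM per kilobase, with a median of 178 and quartiles of 114 and 252. The highest were Rplp1 (461), Rps29 (406), Rps2 (397), Rps15 (393) and Rplp0 (369 CPM per kilobase). The lowest were Rps13-ps1 (13.4), Rpl22l1 (15.3), Rps4l (21.3), Rpl7l1 (30.3) and Rps20 (32.7 CPM per kilobase). Rps20 has an annotated transcript of 3706 bases, of which 357 are coding, so its level per kilobase depends on that model. The 4 members left untested had means under 10 reads: the testis-type copies Rpl10l (0 reads in every library) and Rpl39l (1 to 3 reads), the pseudogene Rps12l1 (0 or 1 read), and Rpl24 (6 or 7 reads). Rpl24 encodes a 60S protein of every ribosome, and 47.0% of its annotated exon bases are shared with another gene on the same strand, Gm28037.

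The isoproterenol response of the KO pair was a small shift shared by most members. Of 81 tested, 68 had a ratio above 1, and the median log2 ratio was 0.15, beside 0.00 for all genes tested. The interval lay above 1 for 54 members and below 1 for 9, where it did so for 27.2% and 27.6% of all genes. Beyond 1.5-fold, 1 member was higher, Rpl3, and 1 was lower, Rpl3l, beside 7.09% and 4.22% of all genes, so the members' shift was wide in reach and small in size. The middle 50% of members spanned 0.04 to 0.29 on the log2 scale, against −0.27 to 0.33 for all genes. Well-covered genes, those averaging 500 reads or more, had a median of −0.09. Of these 5633 genes, whose intervals are narrower, 1488 had the interval above 1 and 2555 below 1. The median was 0.15 for both the 32 tested 40S genes and the 48 tested 60S genes, while the summed reads had a ratio of 1.07 for the 40S genes (1.07 to 1.08) and 1.11 for the 60S genes (1.10 to 1.12). Total-read scaling raised the members' median to 0.34 and that of all genes by 0.18.

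The WT pair showed no such shift. There 37 of 81 members had a ratio above 1, and the median log2 ratio was −0.01. The interval lay above 1 for 13 members and below 1 for 17, where it did so for 15.3% and 16.1% of all genes. Among the 5633 well-covered genes it lay above 1 for 1265 and below 1 for 1499. Beyond 1.5-fold, 0 members were higher and 0 lower, beside 0.86% and 0.797% of all genes. With total-read scaling the counts were 3 above and 41 below 1. The intervals lay above 1 in both pairs for 13 members and below 1 in both for 5, among them Rpl3l, Rpl5, Rpl30 and Rplp2, beside 8.59% and 11.0% of all genes.

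The response differed between genotypes for most members. The difference of log2 ratios, KO pair minus WT pair, was above 0 for 69 of 81, with a median of 0.17, beside 0.00 for all genes. Its counting interval lay above 0 for 55 members and below 0 for 6, among them Rpl3l, Rps2, Rpl23a, Rpl36 and Rps15a, where it did so for 18.9% and 20.4% of all genes. Among the 5633 well-covered genes it lay above 0 for 1184 and below 0 for 2052. Beyond 1.5-fold 0 members were higher and 1, Rpl3l, was lower, beside 3.83% and 1.73% of all genes. Beyond 1.2-fold 8 members were higher, among them Rpl41, Rpl39, Rpl3, Rps19, Rps26, Rpl10 and Rplp1, and 1 was lower, Rpl3l, beside 8.62% and 6.99% of all genes. With total-read scaling the interval of the difference lay above 0 for 74 members and below 0 for 1. With total reads without mitochondrially encoded genes these counts were 67 and 2. For most of the 6 members named as lower, the call therefore depends on the scaling. With 1 library per group this difference has no test beyond counting error.

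**Figure D2:**
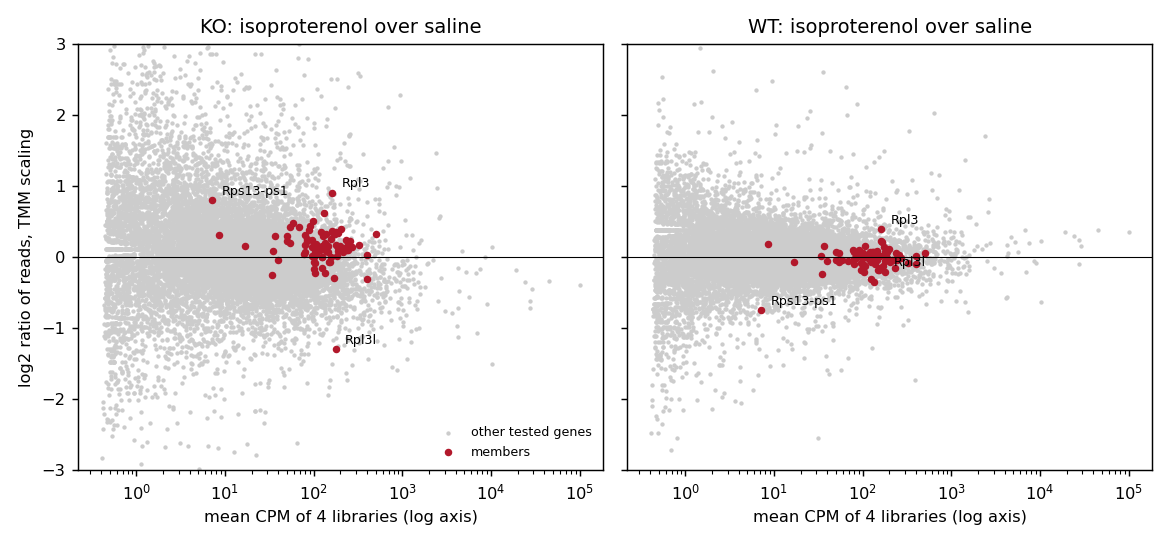
The log2 ratio of isoproterenol over saline (TMM scaling) against the mean CPM of the 4 libraries (log axis), for the KO pair on the left and the WT pair on the right, with the 81 tested members in red and other tested genes in grey. The members sit as a narrow band above 0 in KO (median 0.15) and on 0 in WT (median −0.01), with Rpl3 above and Rpl3l below it in KO; 107 other genes in the KO pair and 15 in the WT pair lie outside the axis range.

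Between genotypes, the KO isoproterenol library was above the WT isoproterenol library for 66 of 81 members, with a median log2 ratio of 0.13. The interval lay above 1 for 49 members and below 1 for 8, where it did so for 22.8% and 22.2% of all genes. Beyond 1.5-fold 1 member, Rps13-ps1, was higher and 1, Rpl3l, was lower, beside 4.2% and 1.8% of all genes. In saline the order was the other way for most members. The KO saline library was above the WT saline library for 27 of 81, with a median log2 ratio of −0.05 and intervals above 1 for 6 members and below 1 for 31, where 11.2% and 10.2% of all genes lay. Among the 5633 well-covered genes 1081 lay above 1 and 896 below 1. Beyond 1.5-fold 1 member, Rps13-ps1, was higher and 0 were lower, beside 0.273% and 0.217% of all genes. Rps13-ps1 was tested through its KO reads alone, so in either treatment its call repeats the difference described above and adds no support. The comparisons share libraries with the isoproterenol pairs and are not separate evidence. For 19 members the interval lay below 1 in saline and above 1 in isoproterenol, among them Rplp0, Rplp1, Rpsa, Rps19 and Rpl41, beside 3.23% of all genes. The interval lay above 1 in both treatments for 4 members, Rpl21, Rpl26, Rps4x and, by its KO reads alone, Rps13-ps1, beside 2.54% of all genes. It lay below 1 in both for 3, Rpl9, Rplp2 and Rps13, beside 3.61%. For 1 member, Rps2, it lay above 1 in saline and below 1 in isoproterenol, beside 4.1% of all genes. With total-read scaling the isoproterenol interval lay below 1 for Rpl3l alone, so Rpl9, Rplp2, Rps13 and Rps2 did not keep these patterns.

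Markers of other cell types moved in the KO pair as well, where 7.09% of all genes were higher and 4.22% lower beyond 1.5-fold. In the KO isoproterenol library 7 of 10 fibroblast markers were beyond 1.5-fold above KO saline (median log2 ratio 2.47), with summed levels of 10973 CPM in KO isoproterenol and 1364 CPM in KO saline, against 3306 CPM in WT isoproterenol and 1719 CPM in WT saline. Of 12 macrophage markers 10 were higher (median 1.26), with sums of 1101 CPM in KO isoproterenol and 444 CPM in KO saline, against 475 CPM in WT isoproterenol and 493 CPM in WT saline. All 10 cell cycle genes were higher (median 2.30), with sums of 70.3 CPM in KO isoproterenol and 14.1 CPM in KO saline, against 31.9 CPM in WT isoproterenol and 26.4 CPM in WT saline. Of 10 ventricular cardiomyocyte markers 5 were lower (median −0.59). In the WT pair 6 fibroblast markers (median 1.01), 1 macrophage marker (0.16) and 0 cell cycle genes (0.34) were higher beyond 1.5-fold. Of the cardiomyocyte markers 1 was lower there (median −0.01). In that pair 0.86% of all genes were higher and 0.797% lower. None of the markers of these 4 lists was at 0 reads in any library. Atrial markers were higher for 3 of 5 in the KO pair and for 2 of 5 in the WT pair. Their sums were 888 CPM in KO isoproterenol and 178 CPM in KO saline, against 264 CPM in WT isoproterenol and 251 CPM in WT saline. Of 8 endothelial, 5 erythroid and 6 tested lymphocyte markers 0 were beyond 1.5-fold in the KO pair, and of 6 smooth muscle and pericyte markers 2 were higher. Of 6 skeletal muscle markers 3 were tested, and 2 of them, Acta1 and Tnnt3, were higher in the KO pair. Their sum, nearly all of it Acta1, which heart muscle also makes, was 1689 CPM in KO isoproterenol and 809 CPM in KO saline, against 482 CPM in WT isoproterenol and 400.1 CPM in WT saline. The same 2 were beyond 1.5-fold higher in KO than in WT isoproterenol, beside 4.2% of all genes. The other 3, the skeletal muscle myosins Myh1, Myh2 and Myh4, had at most 0.131 CPM in any library and were at 0 in KO isoproterenol. In ventricle RNA, fewer cells of a type and less RNA per cell cannot be told apart. The part of these markers in the ribosomal protein values was not tested.

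Rpl3 and Rpl3l showed the largest opposite differences. Rpl3 is a 60S protein close to the peptidyl transferase centre, and Rpl3l is its paralog of heart and skeletal muscle. Rpl3 had 253 CPM in KO isoproterenol and 119 CPM in KO saline, against 155 CPM in WT isoproterenol and 125 CPM in WT saline. Both isoproterenol libraries were above both saline libraries. Rpl3l had 96.0 CPM in KO isoproterenol and 207 CPM in KO saline, against 183 CPM in WT isoproterenol and 223 CPM in WT saline. Here both isoproterenol libraries were below both saline libraries, and KO isoproterenol stood apart from the rest.

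Isoproterenol over saline, Rpl3 was 1.87-fold higher in KO (1.79 to 1.97) and 1.31-fold higher in WT (1.25 to 1.38). Rpl3l was 2.45-fold lower in KO (2.32 to 2.59) and 1.15-fold lower in WT (1.11 to 1.201). The KO and WT responses differed by 0.52 on the log2 scale for Rpl3 (0.42 to 0.61) and by −1.09 for Rpl3l (−1.19 to −0.99). Between the isoproterenol libraries, KO was 1.41-fold above WT for Rpl3 (1.35 to 1.47) and 2.21-fold below it for Rpl3l (2.09 to 2.33). Between the saline libraries the intervals of both genes held 1, with a KO over WT ratio of 0.986 for Rpl3 and 0.964 for Rpl3l. The genotypes thus lay within counting error of each other for this pair of genes in saline and apart in isoproterenol.

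Rpl3l made up 27.5% of the reads of both genes in KO isoproterenol (26.4 to 28.6, exact 95% binomial interval) and 63.5% in KO saline (62.4 to 64.6), against 54.1% in WT isoproterenol (52.9 to 55.3) and 64.0% in WT saline (63.0 to 65.0). Per kilobase, the level of Rpl3l was 0.373 times that of Rpl3 in KO isoproterenol and 1.71 times in KO saline, against 1.16 times in WT isoproterenol and 1.75 times in WT saline. Rpl3l was thus the more abundant of the pair in every library but KO isoproterenol. Their summed level was 349 CPM in KO isoproterenol and 326 CPM in KO saline, against 338 CPM in WT isoproterenol and 348 CPM in WT saline. The order depends on scaling. After TMM scaling the sum of KO isoproterenol was the lowest of the 4, at 0.943 times that of KO saline (0.912 to 0.974) and 0.892 times that of WT isoproterenol (0.862 to 0.923). As Rpl3l is made in striated muscle, the lower cardiomyocyte markers named above stand beside these values, and their part was not tested.

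**Figure D3:**
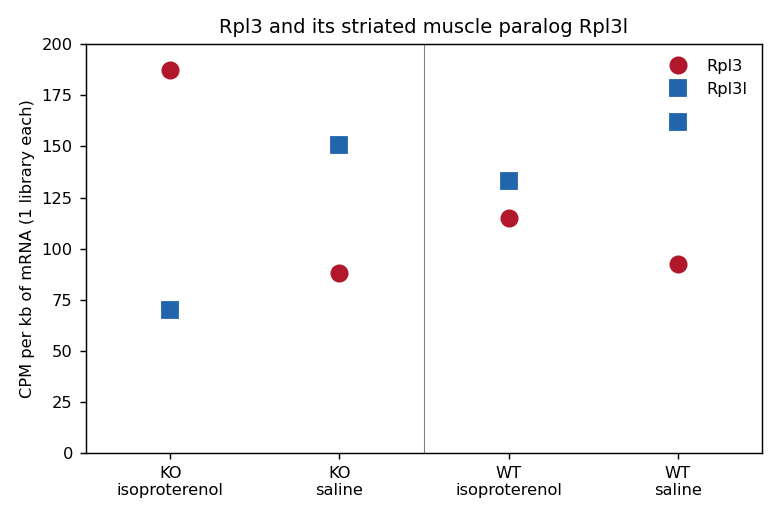
Rpl3 (red circles) and Rpl3l (blue squares) in CPM per kilobase of mRNA, 1 point per library. Rpl3l lies above Rpl3 in KO saline, WT isoproterenol and WT saline and below it in KO isoproterenol, where it is 0.373 times the level of Rpl3.

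In the additive fit Rpl3 was also the 1 member of 81 tested with a treatment term past 0.05 (limma, 0.70 ± 0.18 SE on the log2(CPM + 1) scale, adjusted p = 0.0474), higher with isoproterenol in both genotypes. Of all genes tested, 2.57% had such a term. The call was lost with TMM-scaled CPM, where the lowest adjusted p of any member was 0.268, and with edgeR's quasi-likelihood test of the recovered reads, where it was 0.206. The difference between the genotypes' responses is the residual of this fit.

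The stalk proteins, which recruit the GTPases of elongation to the 60S subunit, did not move as a block. Rplp0, the base of the stalk, had 606 CPM in KO isoproterenol and 428 CPM in KO saline, against 484 CPM in WT isoproterenol and 489 CPM in WT saline. Its isoproterenol over saline ratio was 1.25 in KO (1.21 to 1.28) and 1.04 in WT (1.02 to 1.07). Rplp1 had 283 CPM in KO isoproterenol and 211 CPM in KO saline, against 196 CPM in WT isoproterenol and 231 CPM in WT saline. It was higher with isoproterenol in KO, at a ratio of 1.18 (1.14 to 1.23), and lower in WT, at 0.897 (0.862 to 0.934). Rplp2 had 127 CPM in KO isoproterenol and 131 CPM in KO saline, against 121 CPM in WT isoproterenol and 163 CPM in WT saline. It was 1.16-fold lower with isoproterenol in KO (1.10 to 1.23) and 1.28-fold lower in WT (1.22 to 1.34), and the WT saline library was the high one of the 4. Rplp1 and Rplp2 form dimers on the stalk, and yet their ratios in KO lay on opposite sides of 1. Rpsa, the 40S protein also known as a laminin receptor, had 382 CPM in KO isoproterenol and 301 CPM in KO saline, against 290 CPM in WT isoproterenol and 324 CPM in WT saline, with ratios of 1.12 in KO (1.08 to 1.16) and 0.945 in WT (0.914 to 0.977).

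Beside Rpl3 and Rps13-ps1, the KO pair was led by Rpl41, Rps19, Rpl39, Rpl29 and Rpl38. By the looser rule of an interval beyond 1.2-fold, 16 members were higher and 1 lower, beside 14.0% and 11.7% of all genes. Rpl41, a very short peptide of the 60S subunit, had 184 CPM in KO isoproterenol and 106 CPM in KO saline, against 118 CPM in both WT libraries, and its ratio in KO was 1.53 (1.46 to 1.62). Rps19, a 40S protein mutated in Diamond-Blackfan anaemia in humans, had 127 CPM in KO isoproterenol and 78.4 CPM in KO saline, against 90.1 CPM in WT isoproterenol and 92.9 CPM in WT saline. Its ratio in KO was 1.43 (1.34 to 1.52). For both genes KO isoproterenol was the high library, and in WT the intervals held 1.

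Rpl39, which lines the exit tunnel, had 79.3 CPM in KO isoproterenol and 50.0 CPM in KO saline, against 49.6 CPM in WT isoproterenol and 53.9 CPM in WT saline, with a ratio of 1.40 in KO (1.30 to 1.51). Rpl10, which joins the 60S subunit in the cytoplasm at the end of its assembly, had 265 CPM in KO isoproterenol and 176 CPM in KO saline, against 173 CPM in WT isoproterenol and 191 CPM in WT saline. Its ratio was 1.32 in KO (1.27 to 1.38) and 0.955 in WT (0.914 to 0.997). Again KO isoproterenol was the high library. Also beyond 1.2-fold were Rpl29, Rpl38, Rpl37a, Rpl13a, Rps26, Rps20, Rps14, Rplp0, Rpl3 and Rps13-ps1. Rpl38, which in mice favours the translation of Hox mRNAs, had a ratio of 1.35 (1.24 to 1.46), and Rps26, at the mRNA exit channel, one of 1.33 (1.24 to 1.44).

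Next to Rpl3l, members low in the KO pair were Rps2, Rpl23a and Rpl30. Rps2, at the mRNA entry of the 40S subunit, had 385 CPM in KO isoproterenol and 420 CPM in KO saline, against 381 CPM in WT isoproterenol and 399 CPM in WT saline. It was 1.24-fold lower in KO (1.199 to 1.28) and had a ratio of 1.01 in WT (0.979 to 1.04). After TMM scaling its response differed between KO and WT by −0.32 on the log2 scale (−0.38 to −0.26), the lowest after Rpl3l. Rpl23a, which borders the tunnel exit, was 1.19-fold lower in KO (1.07 to 1.33) and Rpl30 1.17-fold lower (1.10 to 1.24). With total-read scaling the interval stayed below 1 for 3 members, Rpl3l and Rps2 among them.

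In the WT pair 1 member was beyond 1.2-fold higher, Rpl3, and 1 lower, Rplp2, beside 3.1% and 3.01% of all genes. After Rpl3 the highest ratios included those of Rps14 (1.16, 1.11 to 1.22), Rpl22l1 (1.14, 0.916 to 1.41) and Rps13 (1.11, 1.05 to 1.18). The lowest after Rplp2, leaving aside Rps13-ps1 with its 2 and 5 reads, were Rpl32 (1.24-fold lower, 1.17 to 1.31), Rpl35 (1.18-fold lower, 1.07 to 1.30) and Rpl30 (1.15-fold lower, 1.09 to 1.22).

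**Figure D4:**
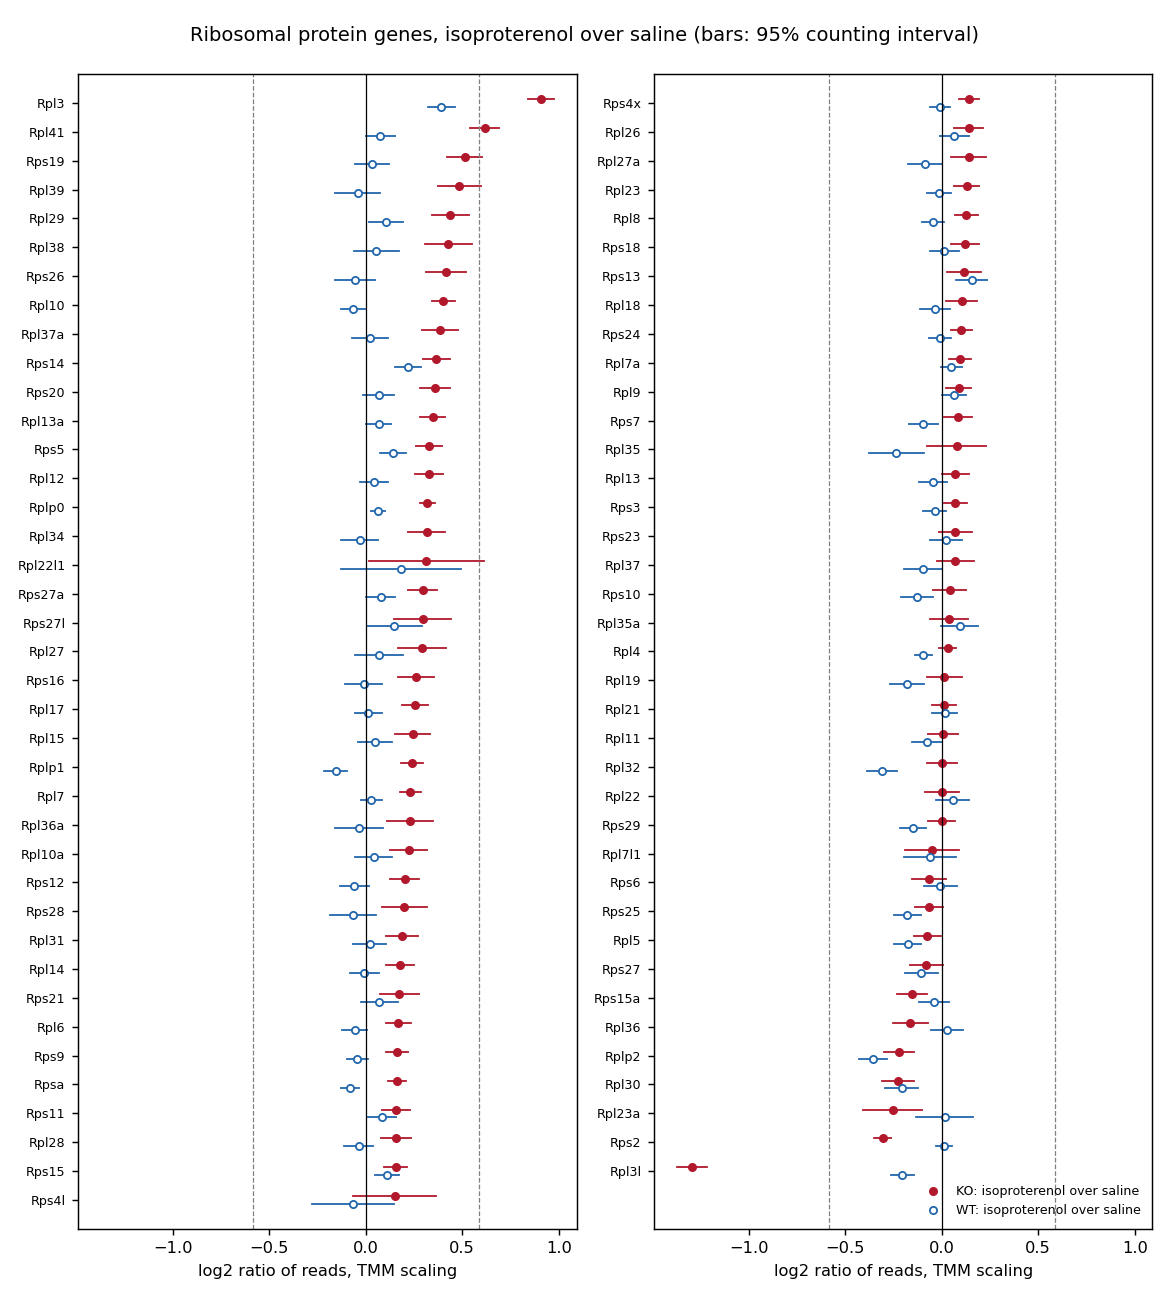
The log2 ratio of isoproterenol over saline for 77 of the 80 tested ribosomal protein genes, ordered by the KO pair, with KO in filled red and WT in open blue circles and bars for the 95% counting interval. Dashed lines mark 1.5-fold; most KO points lie right of 0 and of the WT point in the same row, with Rpl3 at the top (0.91) and Rpl3l at the bottom (−1.29).

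Between the isoproterenol libraries, after Rps13-ps1 and Rpl3, the ratio of KO over WT was highest for Rpl39 (1.38, 1.27 to 1.497), Rpl41 (1.35, 1.28 to 1.42) and Rpl10 (1.32, 1.27 to 1.38). It was lowest, after Rpl3l and Rps13, for Rpl36 (1.19-fold lower in KO, 1.12 to 1.26), Rpl23a (1.17-fold lower, 1.04 to 1.30) and Rps2 (1.15-fold lower, 1.11 to 1.18). By deposited CPM, without TMM, Rps2 was higher in KO. Beyond 1.2-fold 5 members were higher, Rps13-ps1, Rpl3, Rpl39, Rpl41 and Rpl10, and 1 was lower, Rpl3l, beside 9.66% and 7.33% of all genes. Between the saline libraries the ratio was highest, after Rps13-ps1, for Rps2 (1.09, 1.06 to 1.12), Rpl21 (1.08, 1.04 to 1.13), Rpl22l1 (1.07, 0.867 to 1.32) and Rps15a (1.06, 1.01 to 1.11). It was lowest for Rpl35 (1.24-fold lower in KO, 1.13 to 1.37), Rplp2 (1.21-fold lower, 1.15 to 1.27), Rps13 and Rpl38 (1.18-fold lower, 1.08 to 1.28). Beyond 1.2-fold 1 member, Rps13-ps1, was higher and 0 were lower, beside 0.804% and 1.05% of all genes. In either treatment, Rps13-ps1 was tested through its KO reads alone. Rps2 and Rps15a stood near the top in saline and below 1 in isoproterenol, though the isoproterenol interval of Rps15a held 1.

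Paralogs other than Rpl3l stood below their partners. In CPM per kilobase, averaged over the libraries, Rpl22l1 stood at 15.3 and Rpl22 at 214, Rpl7l1 at 30.3 and Rpl7 at 221, Rps27l at 73.1 and Rps27 at 304, and Rps4l at 21.3 and Rps4x at 277. Rpl22l1 had 10.8 CPM in KO isoproterenol and 7.66 CPM in KO saline, against 7.96 CPM in WT isoproterenol and 7.41 CPM in WT saline. Its partner Rpl22 had 111 CPM in KO isoproterenol and 97.5 CPM in KO saline, against 98.2 CPM in WT isoproterenol and 99.8 CPM in WT saline. The KO isoproterenol over KO saline ratio was 1.24 for Rpl22l1 (1.01 to 1.53) and 1.001 for Rpl22 (0.943 to 1.06), and these intervals overlap. Rps27l, a p53 target, had a ratio of 1.23 in KO (1.11 to 1.36) and Rps27 one of 0.946 (0.892 to 1.003), while the WT ratios were 1.11 and 0.929 in the same order. Rpl7l1 had a ratio of 0.967 in KO (0.878 to 1.07) and Rpl7 one of 1.17 (1.13 to 1.22). Rps4l, annotated as a transcribed pseudogene, had 19.1 CPM in KO isoproterenol and 15.2 CPM in KO saline, against 15.6 CPM in WT isoproterenol and 17.2 CPM in WT saline, and all 4 of its comparisons held 1.

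Names that differ by a final a belong to different proteins. In several such pairs the KO isoproterenol over KO saline ratios lay on opposite sides of 1. Rpl36 stood at 0.894 and Rpl36a at 1.17, Rps15 at 1.11 and Rps15a at 0.899, Rps27 at 0.946 and Rps27a, a fusion with ubiquitin, at 1.23. Rpl23 stood at 1.09 and Rpl23a at 0.838. Others were above 1 by unequal amounts, Rpl13 at 1.05 and Rpl13a at 1.27, and Rpl37 at 1.05 and Rpl37a at 1.30. The same held for Rpl7 at 1.17 and Rpl7a at 1.07, Rpl10 at 1.32 and Rpl10a at 1.17, Rpl27 at 1.22 and Rpl27a at 1.10, and Rpl35 at 1.06 and Rpl35a at 1.03. The intervals of Rps27, Rpl13, Rpl37, Rpl35 and Rpl35a held 1. Part of the annotated exon bases is shared with another gene on the same strand for Rpl13a (29.4%), Rps10 (20.6%) and Rpl19 (3.5%), so their counts are less certain.

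A few ribosomal proteins fall outside the name pattern. Fau, whose product carries the 40S protein eS30, had 110 CPM in KO isoproterenol and 65.0 CPM in KO saline, against 80.7 CPM in WT isoproterenol and 79.5 CPM in WT saline, with a ratio of 1.499 in KO (1.40 to 1.60). Gnb2l1, the 40S scaffold RACK1, had a log2 ratio of 0.22 in KO, Rpl36al 0.09 and Rps3a1 −0.02. Of the 5 tested, 0 were beyond 1.5-fold in either direction in the KO pair, beside 7.09% of all genes higher and 4.22% lower, and the median was 0.09.

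Elongation factors and other mRNAs with a TOP start, a class regulated with the ribosomal proteins, had a median log2 ratio of 0.01 in the KO pair and −0.07 in the WT pair over 13 genes. In KO 2 were higher beyond 1.5-fold and 1 lower, beside 7.09% and 4.22% of all genes. Eef1a1, which brings aminoacyl-tRNA to the ribosome, had 1477 CPM in KO isoproterenol and 660 CPM in KO saline, against 778 CPM in WT isoproterenol and 711 CPM in WT saline, with a ratio of 1.97 in KO (1.93 to 2.01) and 1.16 in WT (1.13 to 1.18). Its muscle paralog Eef1a2 had 967 CPM in KO isoproterenol and 1125 CPM in KO saline, against 1062 CPM in WT isoproterenol and 1135 CPM in WT saline, 1.32-fold lower in KO (1.30 to 1.35). As with Rpl3 and Rpl3l, the general form was above its KO saline level and the muscle form below it. Vim, the intermediate filament of mesenchymal cells, had a log2 ratio of 1.46 and Pabpc1 0.60. Naca, the nascent chain chaperone that also has a muscle form, had −0.64, Hnrnpa1 −0.59 and Eef2, the translocase, had a ratio of 1.004 (0.988 to 1.02).

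For the machinery that builds and loads ribosomes, the medians lay below 0 after TMM scaling. Ribosome biogenesis factors had a median log2 ratio of −0.16 in KO and −0.09 in WT, with 4 of 47 above 0 in KO. Among them Npm1 (0.17), Nip7 (0.16) and Noc3l (0.09) were highest and Rrs1 (−0.66), Nolc1 (−0.50) and Dkc1 (−0.44) lowest. RNA polymerase I genes, which make ribosomal RNA, had medians of −0.12 in KO and −0.08 in WT over 16 genes, from Polr1a (−0.70), Polr1b (−0.53) and Cd3eap (−0.31) to Taf1d (0.12), Ptrf (0.20) and Polr1e (0.23) in KO. Initiation factors had medians of −0.13 in KO and −0.05 in WT over 30 genes, with Eif1a (0.50), Eif6 (0.36) and Eif2s2 (0.15) highest and Eif4g1 (−0.53), Eif3f (−0.49) and Eif3j1 (−0.44) lowest in KO. In these 3 lists 0 genes were beyond 1.5-fold in either pair. The shares of all genes were 7.09% higher and 4.22% lower in KO, and 0.86% higher and 0.797% lower in WT.

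Regulators of ribosomal protein synthesis had a median of −0.25 in KO and 0.02 in WT over 16 genes, with 0 beyond 1.5-fold in either pair, beside the same shares of all genes. The highest in KO were Myc (0.47), Eif4ebp1 (0.19) and Rps6kb2 (0.06), and the lowest were Eif4ebp2 (−0.70), Mycn (−0.56) and Tsc2 (−0.45). Myc, a transcription factor that drives ribosome production, had 5.75 CPM in KO isoproterenol and 3.66 CPM in KO saline, against 2.08 CPM in WT isoproterenol and 2.30 CPM in WT saline. It was 2.38-fold higher in KO than in WT isoproterenol (1.67 to 3.49). In that comparison Myc was the only 1 of the 16 regulators with a ratio above 1, and their median was −0.22. Beyond 1.5-fold 1 was higher and 0 lower, beside 4.2% and 1.8% of all genes. Host genes of small nucleolar RNAs, whose spliced RNAs often start with a TOP run, had a median of 0.32 in KO and −0.03 in WT over 7 genes. Snhg18 (1.37) and Gas5 (0.87) were higher beyond 1.5-fold in KO, beside 7.09% of all genes. Snhg5 stood at 1.03, and Snhg6 (−0.17), Snhg4 (−0.16) and Snhg12 (0.09) were lowest. With total-read scaling, which raises every gene's ratio in the KO pair alike, the medians in KO were 0.02 for biogenesis factors, 0.07 for RNA polymerase I, 0.05 for initiation factors and 0.51 for the small nucleolar RNA hosts. The sign of the first 3 therefore depends on the scaling.

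**Figure D5:**
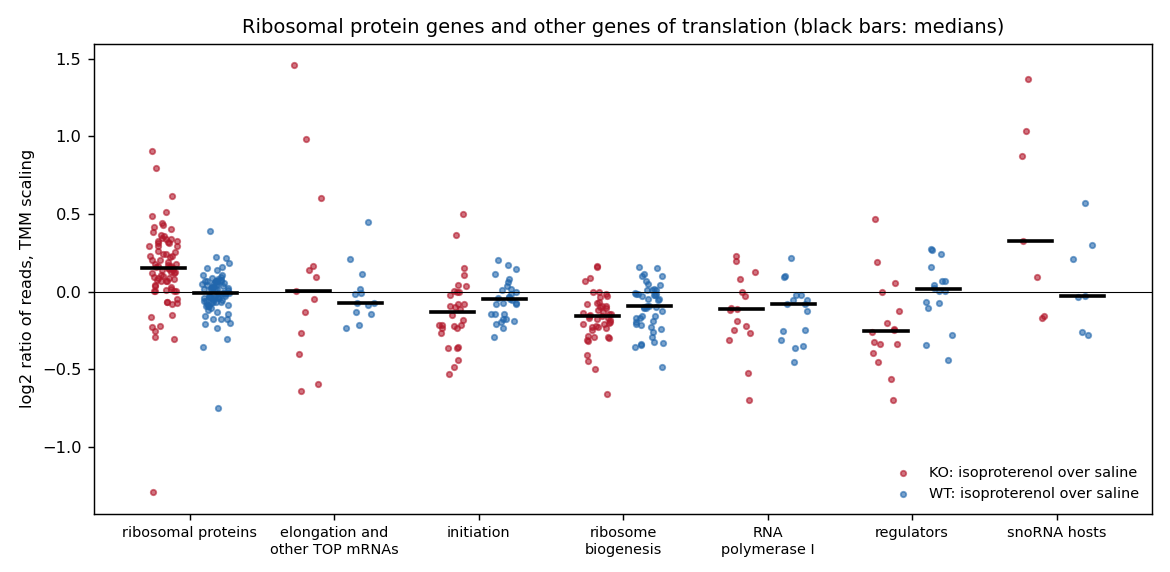
The log2 ratio of isoproterenol over saline for each tested ribosomal protein gene and for genes of 6 other lists, KO in red left of WT in blue, with a black bar for the median of each. After TMM scaling the KO median is 0.15 for the ribosomal proteins and 0.32 for snoRNA hosts, against −0.16 for biogenesis, −0.13 for initiation and −0.12 for RNA polymerase I.

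The start of the mRNA was looked up in the RefSeq promoter table (GRCm38.p6), which held 74 windows for 62 of the member symbols. A C followed by at least 5 pyrimidines, with the C within 10 bases of the start on the gene's strand, was present in 47.3% of these windows and 19.2% of all 32851 windows. Windows of 30 bases, 10 before the start and 20 from it, are shown for members named above, with that run in capitals. The first 4 hold such a run and the last 3 do not. The letters of Rps13 hold one farther than 10 bases from the start, so its outcome rests on the annotated start.

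Rpl38: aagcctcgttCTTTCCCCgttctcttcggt

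Rpl39: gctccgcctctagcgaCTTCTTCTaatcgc

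Rplp2: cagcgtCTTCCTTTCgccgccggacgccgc

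Rps2: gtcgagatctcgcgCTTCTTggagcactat

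Rpl41: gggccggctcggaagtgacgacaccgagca

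Rpl10: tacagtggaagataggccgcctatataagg

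Rps13: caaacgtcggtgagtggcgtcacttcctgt

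In order these lie at chr11:114668570-114668599 (plus), chrX:37085203-37085232 (minus), chr7:141447641-141447670 (plus), chr17:24720053-24720082 (plus), chr10:128549149-128549178 (minus), chrX:74270806-74270835 (plus) and chr7:116334171-116334200 (minus). A run was present both in members that were higher in the KO pair (Rpl38, Rpl39) and in members that were lower (Rplp2, Rps2). The 33 tested members with a run had a median log2 ratio of 0.16 in the KO pair and the 26 without had 0.12. The letters CCGGAAG, which hold the core bound by ETS factors such as GABPA, were found on either strand in 35.1% of the members' 300-base windows (250 before to 50 after the start) and in 8.86% of all windows. Members with and without them had medians of 0.14 each. AAGATGGC, bound by YY1, was found in 10.8% and 2.75%, and the 6 members with it had a median of −0.02 against 0.15 for the others. TATAAA was found in 9.46% of members' windows and 13.6% of all, with a median of 0.23 for the 7 members with it and 0.13 for the others. A match is a description of these letters in this window, not a binding site.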

How the data were processed

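Stranded mRNA libraries of 4 groups, 1 library each, were analysed. The authors deposited CPM per gene, and the submitters' processing notes name HTSeq and the builds GRCm38.p4 and mm10. For the aligner, annotation release and counting options, nothing is given in the sources used here. Columns named by genotype alone were taken as saline, since the others name isoproterenol.

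All values above 0 were whole multiples of the smallest value of their column within 0.01 reads, so 100% were returned to whole reads. TMM factors (edgeR 4.0.16, genes averaging 10 reads or more) were 1.10, 0.966, 0.946 and 0.999 for KO isoproterenol, KO saline, WT isoproterenol and WT saline. Ratios of 2 libraries, with 0.5 added to each count, have exact conditional (Clopper-Pearson) 95% intervals, and the difference of responses one from the 4 counts. Since each group holds 1 library, intervals cover counting error only. They treat each read as a separate molecule, though reads carry no molecular identifiers. Genotype and treatment were fitted without interaction by limma 3.58.1 (trend, log2(CPM + 1), 1 residual degree of freedom), adjusted by Benjamini-Hochberg at 0.05. Interval and ratio calculations were tested on simulated data. P-values rest on the residual of the additive fit, with its trend over all genes. That residual is the difference between the genotypes' responses and may be technical. With 1 library per group, p-values measure no spread between hearts of a group.

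Some genes are not reported here. Members, lists and markers were chosen with earlier results of these data known. Named are Rps13, Rps13-ps1, stalk genes, Rpsa, paralogs, members beyond 1.5-fold, the 5 highest and 5 lowest per comparison and by level, and the 3 highest and lowest per list. Others, such as those beyond 1.2-fold, on chromosome 7 or with shared exons, were chosen after their values were seen. Positions, gene types and lengths were taken from GENCODE M21 (GRCm38), which held the Ensembl IDs of 46005 genes and of all 85 members. Start windows came from RefSeq (GRCm38.p6). The alternatives were other scalings, folds, filters, added counts and pseudocounts. An interval that does not hold 1, members left out and edgeR on recovered reads were added after seeing the data.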

Additional observations from a re-analysis of the deposited data

Results flagged for a closer look

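For 4 members the isoproterenol over saline ratio lay on opposite sides of 1 in the KO pair and the WT pair, each with its whole counting interval, and the difference was not tested, since each group holds 1 library. Of all genes tested, 1.28% lay above 1 in KO and below 1 in WT, and 2.47% the other way. Rplp1 had log2 ratios of 0.24 in KO and −0.16 in WT, a difference of 0.396. Rpl10 had 0.40 in KO and −0.07 in WT, a difference of 0.468. Rpsa had 0.16 in KO and −0.08 in WT, a difference of 0.244. Rps7, a 40S protein, had 0.08 in KO and −0.10 in WT, a difference of 0.18. In the opposite pattern, lower in KO and higher in WT, there were 0 members.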

How the results depend on the processing

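No paired analysis was possible because each group holds 1 library, and for the same reason no replicate could be left out. Of the values tried again that answer a comparison, 120 stayed the same and 34 moved, and 0 reversed. A count of called members was taken as the same if equal or, where neither count was 0, within 1.5-fold of the reported one. Total-read scaling gave 4 members higher beyond 1.5-fold in the KO pair, 2 in KO against WT isoproterenol and 6 for the difference of responses. It gave medians of 0.34 (KO pair), −0.089 (WT pair), 0.34 (KO against WT isoproterenol) and 0.43 (difference), and it moved the median of all genes by 0.18, −0.08, 0.21 and 0.26 in the same order. Total reads without mitochondrially encoded genes gave 3 members higher in the KO pair, and medians of 0.26 there, 0.22 in KO against WT isoproterenol and 0.28 for the difference. At 1.2-fold, 16 members were higher in the KO pair, 1 higher and 1 lower in the WT pair, 5 higher in KO against WT isoproterenol and 8 for the difference. At 2-fold, 0 were higher in the KO pair and 0 lower for the difference. Without Rpl3 and Rpl3l, 0 were higher and 0 lower in the KO pair, and 0 lower in KO against WT isoproterenol and for the difference. Without Rps13-ps1, 0 were higher in either comparison of genotypes.

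The treatment term of the additive fit called 2 members, Rpl3 and Rpl3l, with a pseudocount of 0.25 CPM or no filter, and 0 with a pseudocount of 5 CPM, with TMM-scaled CPM or with edgeR, where 2 members each had an unadjusted p under 0.05. The genotype term called 0 with TMM-scaled CPM, where 1 had an unadjusted p under 0.05. Of reads outside mitochondrially encoded genes the members took 1.70% in KO isoproterenol and 1.44% in KO saline, against 1.49% in WT isoproterenol and 1.504% in WT saline. The cause of these shifts was not tested. Of the single members' values 332 stayed the same, 22 moved, 29 passed the threshold only under the alternative and 2 only in the reported setting. With 1 library per group, spread between hearts has no measure here, and counting intervals are too narrow by that amount. Reads of near-identical loci, Rps13 and Rps13-ps1 above all, cannot be told apart from gene totals.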
